A study of Capra hircus with 6 samples.

Results

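A set of 8 receptors of hormones that act on hair growth, and an enzyme that activates thyroid hormone, was followed through skin of 3 coat colours: the prolactin receptor PRLR, the oestrogen receptor ESR1, the thyroid hormone receptors THRA and THRB, the vitamin D receptor VDR, the glucocorticoid receptor NR3C1, the orphan receptor RORA, the retinoic acid receptor RARG and the deiodinase DIO2. The members were chosen by gene symbol, and all 9 were found, each at a single locus of the 26938 loci in the deposited table. RNA was measured in flank skin punches of 6 female Changthangi Pashmina goats, all 26 months old, of which 2 had a white, 2 a brown and 2 a black coat, and which differ only in coat colour as far as the labels say. The samples were taken at the same time point, but the season is not given in the sources used here. The table gives each gene 1 FPKM (fragments counted per kilobase of exon and scaled to the mapped total) per colour, which combines its 2 goats. No difference below could therefore be set against the spread between goats, and no p-value is given. A gene is said to be past the fold where the absolute log2 ratio of FPKM between 2 colours was at least 1, with an FPKM of at least 1 in either colour and above 0 in both. The number of fragments behind a value is unknown.

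The fine undercoat of cashmere goats grows and is shed with the seasons. Day length is read through melatonin, which holds down the release of prolactin from the pituitary, and prolactin acts on the follicle through PRLR. The other receptors are nuclear receptors, proteins that bind a small lipid-soluble hormone and switch genes on or off, often in a pair with a retinoid X receptor. In mice, loss of the vitamin D receptor leads to hairlessness after the first coat, and oestrogen acting through ESR1 holds follicles at rest. A skin punch mixes follicle, epidermis, dermis, glands, vessels and immune cells, so that in these samples fewer cells of a type and less RNA per cell cannot be told apart.

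The members covered a wide range of levels. RARG was the highest, with 56.1 FPKM in white goats, 44.5 in brown goats and 41.7 in black goats. THRA followed with 43.2 FPKM in white goats, 32.2 in brown goats and 25.5 in black goats, and VDR with 40.6 FPKM in white goats, 30.3 in brown goats and 29.7 in black goats. Of 13814 loci with a mean of at least 1 FPKM, 87.4% lay below RARG, 82.3% below THRA and 82.2% below VDR. THRA and VDR had almost the same mean (33.6 and 33.5 FPKM), and so had NR3C1 and PRLR (12.33 and 11.99 FPKM), and no spread was at hand to rank these neighbours. RORA stood between these pairs with a mean of 22.0 FPKM. DIO2 and THRB were lower, with 7.16 and 2.88 FPKM. ESR1, at a mean of 0.68 FPKM, was the only member under 1.

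**Figure D1:**
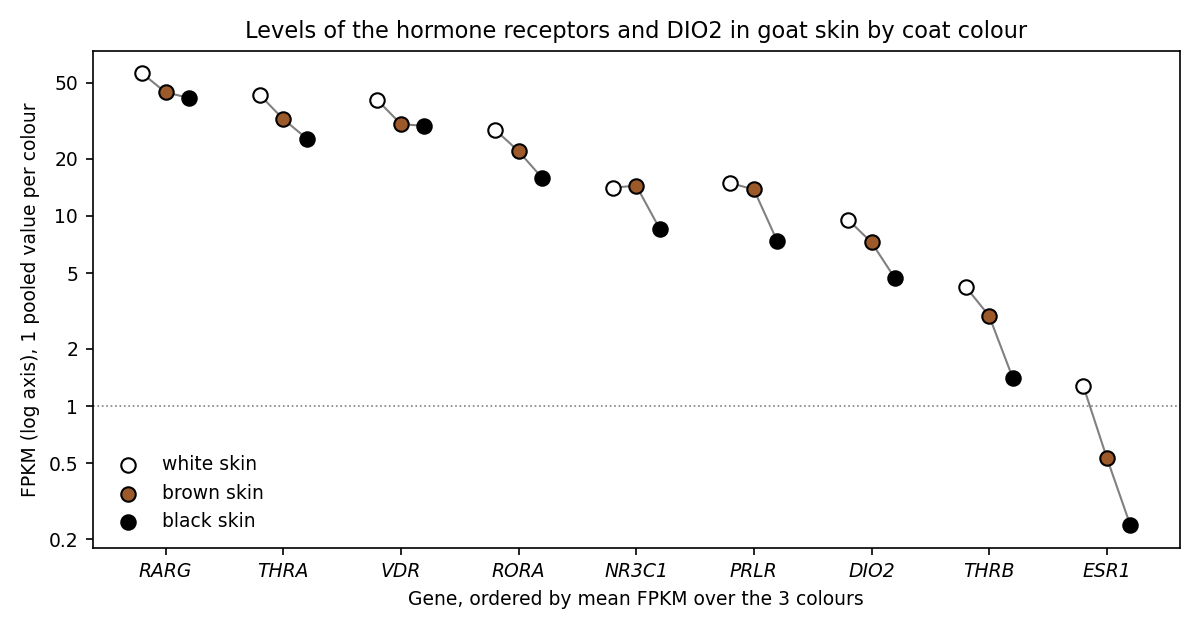
FPKM of the 9 genes on a log axis, with 1 pooled value per colour (white, brown and black circles, joined by a line for each gene) and no error bars because values per goat were not used here. The black circle is the lowest for every gene, and the white one is the highest for all but NR3C1; the dotted line marks 1 FPKM.

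Black skin had the lowest level of all 9 genes. White skin had the highest level of 8, in the order white, brown, black, and only NR3C1 was higher in brown than in white. The same order held for 35.2% of 14273 loci with an FPKM above 0 in every colour and at least 1 in the highest, and black was the lowest colour at 56.5% of them. The shift away from black was therefore shared with much of the transcriptome. Over the members, the median log2 ratio of white over black was 0.84, that of white over brown 0.40 and that of brown over black 0.55. Over all loci that passed the filter these medians were 0.26, 0.04 and 0.21.

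Between white and black skin, 4 of 9 members were past the fold, all higher in white: ESR1, THRB, DIO2 and PRLR. Of all 14134 loci compared, 13.0% were past the fold, 10.7% as higher and 2.29% as lower in white. Between white and brown skin, ESR1 alone of 9 was past the fold, as higher in white, against 7.27% of 14207 loci (4.86% higher and 2.41% lower). In both comparisons with white, ESR1 passed the filter only through white, where it was highest. Between brown and black skin, THRB alone of the 8 members above the filter was past the fold, as higher in brown, against 4.77% of 13881 loci (3.52% higher and 1.25% lower). No member was past the fold as lower in any of the 3 comparisons. PRLR (log2 ratio of white over black 1.02) and DIO2 (1.03) lay just inside the threshold, and RORA (0.84) and THRA (0.76) just outside it. The 4 of 9 were a larger share than that of all loci, while a single gene of 9 or of 8 is close to the background for so few genes.

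The ratios to black also moved with the span of the locus, introns included. When the loci compared were divided by span into 20 bins of equal number, the median log2 ratio of white over black was 0.10 in the bin of shortest loci and 0.89 in that of the longest. For brown over black these medians were 0.06 and 0.65. The members stand at both ends of this range. THRB spans 417313 bp, ESR1 240688 bp, PRLR 194448 bp, NR3C1 120061 bp and VDR 103375 bp, while RORA spans 38701 bp, RARG 19595 bp, THRA 9768 bp and DIO2 576 bp. The spans of THRB and ESR1 are each listed for an overlapping locus as well. A listed span may therefore be that of a region shared by loci and not of the gene alone. With the median of its span bin subtracted from each locus, ESR1 was the only member past the fold in white over black (log2 ratio 1.54), against 8.38% of all loci (5.09% higher and 3.28% lower), and again the only one in white over brown (1.02), against 7.12% (4.44% higher and 2.68% lower). Both calls rest on a gene that passed the filter only through white, where it was highest. In brown over black none was left, against 3.28% (1.67% higher and 1.61% lower). Among loci above the filter in both comparisons with black, 8 of 8 members had both white and brown above black as deposited, against 56.2% of 13688 loci, and 6 of 8 after the subtraction, against 31.8%. The 2 that dropped out were VDR and RARG. RORA is counted among the 6 at its listed span of 38701 bp, and a longer span was not tested.

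**Figure D2:**
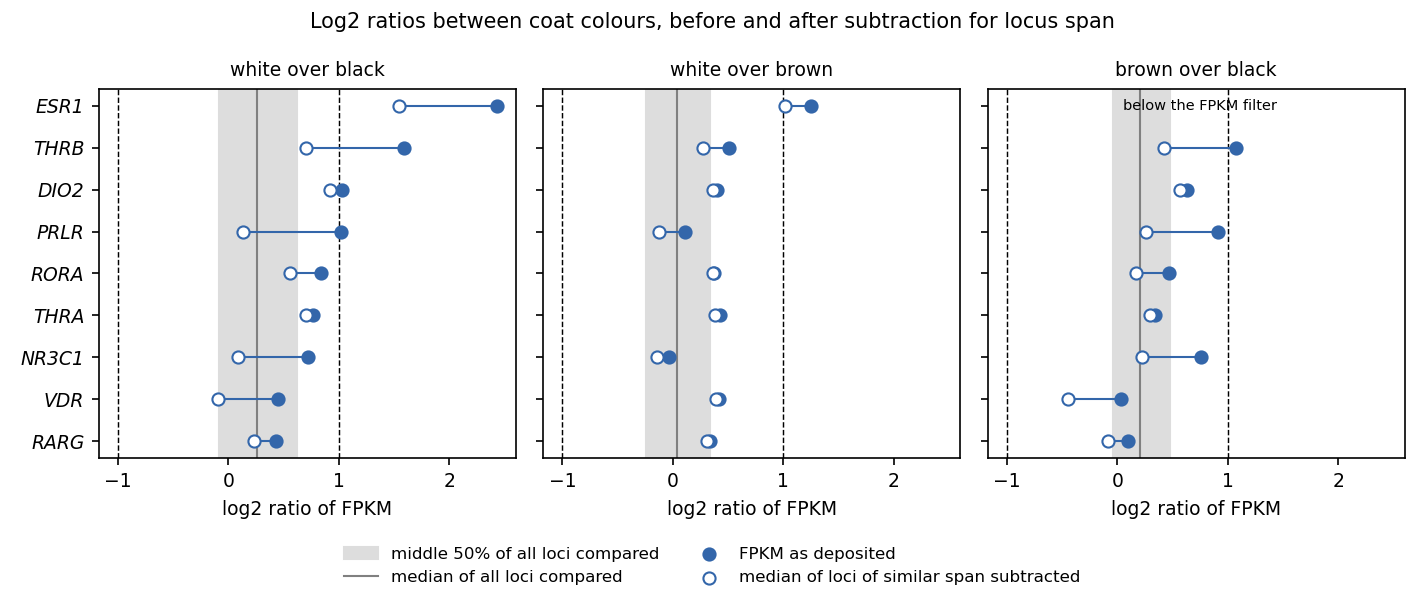
Log2 ratio of FPKM (x axis) of each gene in the 3 comparisons, as deposited (filled circles) and with the span bin median subtracted (open circles); the grey band holds the middle 50% of all loci compared, the grey line their median and the dashed lines the fold threshold. ESR1, THRB, DIO2 and PRLR are past the threshold in white over black as deposited, and ESR1 alone after the subtraction. ESR1 passed the filter only through white, where it was highest.

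**Figure D3:**
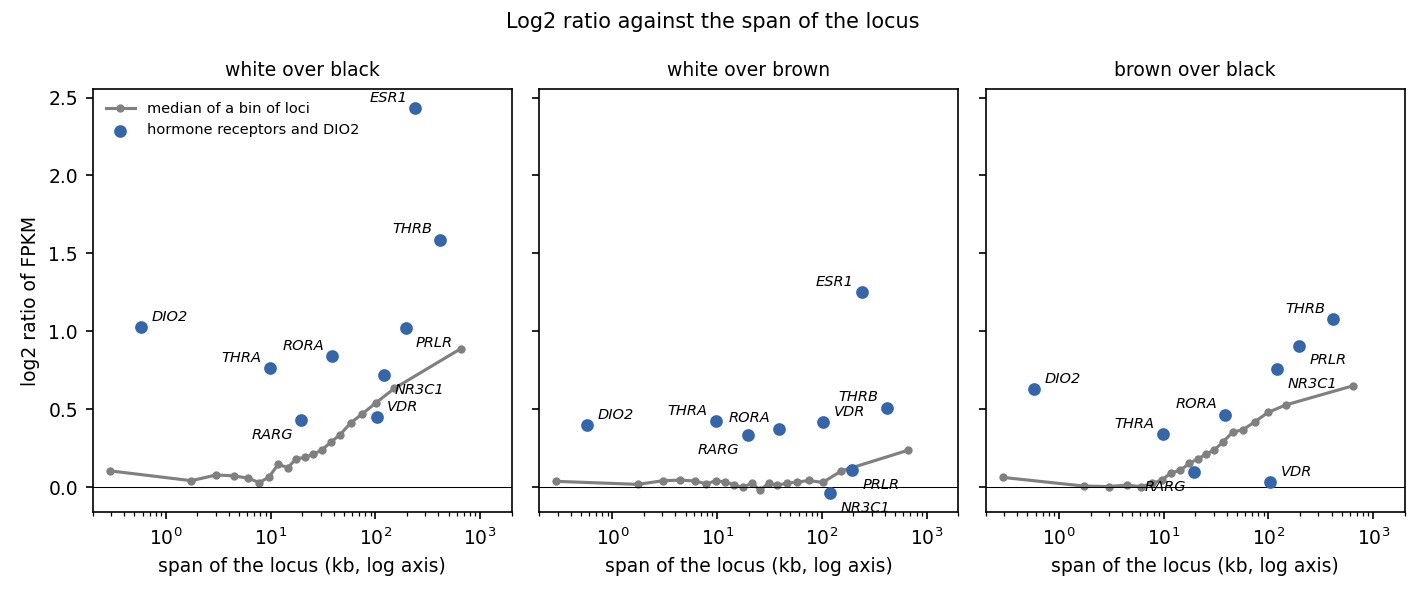
Log2 ratio of FPKM (y axis) against locus span in kb (log x axis), with the median of each of 20 bins of loci as grey points and the members as blue points. The grey line climbs with span in both comparisons with black and stays near 0 up to the longest loci in white over brown. ESR1, above the filter only through white, lies 1.54 above its bin in white over black.

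PRLR, the receptor of the pituitary hormone that links day length to moulting, is at 38617353 to 38811800 of chromosome 20 (positions here and below are those of the deposited table). PRLR had 14.9 FPKM in white goats, 13.8 in brown goats and 7.33 in black goats. White and brown thus lay close together and black stood apart, with log2 ratios of 1.02 for white over black, 0.11 for white over brown and 0.91 for brown over black. PRLR is in the bin of longest loci, where 37.6% had at least its ratio of white over black, and its ratios after the subtraction were 0.13, -0.13 and 0.26. The growth hormone receptor GHR, a related cytokine receptor that also lies in a long locus, ran nearly parallel: the ratio of PRLR to GHR was 4.97 in white goats, 5.36 in brown goats and 4.74 in black goats.

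Receptors of this class signal through the kinase JAK2 and STAT5 proteins, which switch on inhibitors of the same route, CISH and the SOCS proteins. Of 9 genes of the prolactin and growth hormone axis that passed the filter, 2 were past the fold as higher and 1 as lower in white than in black, and 3 as higher in white than in brown. After the subtraction 1 of them, the leptin receptor LEPR, was higher and 1 lower between white and black. Between white and brown 2 were higher, LEPR among them. Of all loci, 13.0% were past the fold in white over black, 7.27% in white over brown and 4.77% in brown over black. These shares, which also apply to the lists below, were 8.38%, 7.12% and 3.28% after the subtraction. The genes of the inhibitors did not share a direction. SOCS3 had 8.75 FPKM in white goats, 10.8 in brown goats and 19.9 in black goats, a log2 ratio of white over black of -1.19. SOCS2, the most abundant gene of the list, had 14.6 FPKM in white goats, 15.2 in brown goats and 22.5 in black goats. SOCS1 had the opposite order between white and black, with 10.4 FPKM in white goats, 2.86 in brown goats and 4.88 in black goats, log2 ratios of 1.09 for white over black and 1.87 for white over brown (0.99 and 1.83 after the subtraction). CISH, named after its values were seen, was past the fold in white over brown (19.7 FPKM in white, 9.82 in brown, log2 ratio 1.01, and 0.97 after the subtraction). LEPR, on the list as of the same receptor class though a receptor of neither hormone, had 3.28 FPKM in white goats, 1.27 in brown goats and 0.90 in black goats. Its log2 ratio of white over black of 1.87 was 1.24 after the subtraction, but there LEPR passed the filter only through white, where it was highest.

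ESR1, which binds oestradiol, is at 74985711 to 75226398 of chromosome 9. Its FPKM was 1.28 in white goats, 0.54 in brown goats and 0.24 in black goats. This is the widest range of the members, 5.39-fold from the lowest to the highest colour, at the lowest level. In log2 ratios, white stood 2.43 above black and 1.25 above brown. The values of brown and black are both under 1 FPKM, so that comparison was not counted, and ESR1 passed the filter of the other comparisons only through white, where it was highest. With 1 FPKM required in both colours it entered none. Of the 8 members left, 3 were past the fold in white over black (9.22% of all loci) and 0 in white over brown (4.90%). With 1 added to each FPKM the log2 ratio of white over black was 0.88 and ESR1 was past the fold in no comparison. A second, unnamed locus shares its region with the same listed span and is at 0 in every colour. The next gene along the chromosome, SYNE1, 17808 bp away and named after its values were seen, had 4.42 FPKM in white goats, 2.31 in brown goats and 1.19 in black goats.

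Of the other sex steroid genes, 8 passed the filter between white and black, with 2 past the fold as higher in white and none as lower. Steroid sulfatase, STS, which frees steroids from their sulfate stores, had 3.10 FPKM in white goats, 0.82 in brown goats and 0.48 in black goats. In white over black its log2 ratio was 2.70, and 2.06 after the subtraction. STS was also past the fold in white over brown (1.91), the only gene of the list there, but it passed the filter only through white, where it was highest. HSD17B4, the most abundant gene of the list, an enzyme of peroxisomal fatty acid breakdown that also oxidises oestradiol, had 45.6 FPKM in white goats, 42.9 in brown goats and 34.8 in black goats.

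THRA and THRB are the nuclear receptors of triiodothyronine. THRA is at 39554160 to 39563927 of chromosome 19, and THRB at 39985712 to 40403024 of chromosome 27, where a second, unnamed locus listed at 0 overlaps it. THRA was the main form in every colour. THRB had 4.24 FPKM in white goats, 2.98 in brown goats and 1.41 in black goats. The ratio of THRA to THRB was 10.2 in white goats, 10.8 in brown goats and 18.1 in black goats, so that THRB was lower relative to THRA in black skin. The log2 ratio of white over black was 0.76 for THRA and 1.59 for THRB, but 0.70 for each with the bin medians subtracted. The difference in ratio between these receptors was thus no larger than that between short and long loci in general. In their bins, 7.92% of loci had at least the ratio of THRA and 10.2% at least that of THRB.

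DIO2 turns the prohormone thyroxine into active triiodothyronine inside the cell, and in the brain of seasonal mammals it responds to day length. In skin it had 9.55 FPKM in white goats, 7.25 in brown goats and 4.69 in black goats, with log2 ratios of 1.03 for white over black, 0.40 for white over brown and 0.63 for brown over black. The ratio of white over black changed little with span (0.92 after the subtraction). Its locus, 87589573 to 87590148 of chromosome 10, spans 576 bp, the shortest of the members, so the value rests on a short stretch of sequence, while the mammalian DIO2 transcript has a long untranslated end. DIO3, which inactivates thyroid hormones, was at a similar level, with 11.9 FPKM in white goats, 8.63 in brown goats and 7.46 in black goats. DIO2 over DIO3 was 0.80 in white goats, 0.84 in brown goats and 0.63 in black goats.

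Of 14 genes of thyroid hormone uptake, conversion and cofactors above the filter, 3 were past the fold between white and black, all higher in white, 1 was past it between white and brown and none between brown and black. KLF9, a transcription factor induced by both thyroid hormone and glucocorticoids, had 25.6 FPKM in white goats, 11.5 in brown goats and 10.6 in black goats. It stood apart in white, with log2 ratios of 1.28 over black and 1.16 over brown. KLF9 was the only gene of the list still past the fold in white over black after the subtraction (1.06). NCOA2 had 8.97 FPKM in white goats, 5.78 in brown goats and 3.38 in black goats, and its log2 ratio of white over black of 1.41 was 0.52 after the subtraction. HR, the hairless corepressor that binds thyroid, vitamin D and ROR receptors and is needed for hair regrowth in mice, was the most abundant gene of the list, with 87.8 FPKM in white goats, 67.1 in brown goats and 53.7 in black goats (log2 ratio of white over black 0.71).

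VDR is at 31144114 to 31247488 of chromosome 5 and binds DNA together with a retinoid X receptor. White stood above the other colours (40.6 FPKM, against 30.3 in brown and 29.7 in black), which were almost equal. The log2 ratios were 0.45 for white over black, 0.42 for white over brown and 0.03 for brown over black. After the subtraction those to black were -0.09 and -0.45, so the direction to black depended on it, while white over brown kept 0.39. None of the 6 genes of the vitamin D pathway above the filter was past the fold in any comparison. The partner RXRA had 31.9 FPKM in white goats, 24.8 in brown goats and 17.5 in black goats, named here as the partner of several members. The ratio of VDR to RXRA was 1.27 in white goats, 1.22 in brown goats and 1.70 in black goats. PDIA3, a chaperone of the endoplasmic reticulum that also serves as a membrane receptor of vitamin D, was the most abundant gene of the list, with 202 FPKM in white goats, 318 in brown goats and 289 in black goats.

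RARG, the main retinoic acid receptor of the epidermis in mice, lies on the same chromosome at 26035637 to 26055231. It varied least among the members, 1.35-fold from the lowest to the highest colour. Its log2 ratios were 0.43 for white over black, 0.33 for white over brown and 0.10 for brown over black. RARA, a close relative, had 26.0 FPKM in white goats, 23.6 in brown goats and 25.3 in black goats, which put the ratio of RARG to RARA at 2.15 in white goats, 1.89 in brown goats and 1.65 in black goats.

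A gene of retinoic acid synthesis and another of its binding had larger ratios than RARG. Of 16 retinoid pathway genes above the filter, 1 was past the fold as higher and 1 as lower in white than in black, and also 1 each in brown than in black. ALDH1A2, which makes retinoic acid from retinal, had 4.34 FPKM in white goats, 1.29 in brown goats and 0.59 in black goats, with log2 ratios of 2.87, 1.75 and 1.11 for white over black, white over brown and brown over black. After the subtraction these were 2.45, 1.72 and 0.75, so the call in brown over black was lost. In both comparisons with black, ALDH1A2 passed the filter only through the other colour, where it was higher. CRABP1, which binds retinoic acid in the cytoplasm, was highest in black skin, with 25.3 FPKM in white goats, 33.2 in brown goats and 68.2 in black goats. In log2 ratios to black, white stood at -1.43 and brown at -1.04, and at -1.49 and -1.04 after the subtraction. FABP5, a fatty acid carrier that can also bring retinoic acid to another nuclear receptor, was the most abundant gene of the list, with 1491 FPKM in white goats, 2486 in brown goats and 1987 in black goats.

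NR3C1 is at 50508596 to 50628656 of chromosome 7. It was the only member with brown on top, though by little: 14.0 FPKM in white goats, 14.4 in brown goats and 8.54 in black goats. In log2 ratios, white stood at 0.72 over black and -0.04 over brown, and brown at 0.76 over black, and after the subtraction these were 0.08, -0.14 and 0.23. Of loci of similar span, 40.6% had at least its ratio of white over black and 22.3% at least its ratio of brown over black.

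The glucocorticoid list was made up mainly of genes that the receptor induces and of enzymes and chaperones that act on it. It had the most genes past the fold of the lists in white over black, where the receptor itself had a log2 ratio of 0.72. Of 10 genes of the glucocorticoid pathway above the filter, 5 were past the fold as higher in white than in black, 3 as higher in white than in brown and 2 as higher in brown than in black, and none as lower. After the subtraction 3, 3 and 1 were past it. Of all loci, 13.0%, 7.27% and 4.77% were past the fold in these comparisons, and 8.38%, 7.12% and 3.28% after the subtraction. The transcription factor ZBTB16 had 8.89 FPKM in white goats, 2.89 in brown goats and 1.05 in black goats. Its log2 ratios of 3.08, 1.62 and 1.46 were 2.19, 1.38 and 0.81 after the subtraction. TSC22D3, which carries the anti-inflammatory action of glucocorticoids, had 68.2 FPKM in white goats, 22.8 in brown goats and 26.8 in black goats. In ZBTB16 the steps from white to brown and from brown to black were of like size, while TSC22D3 stood apart in white, with a log2 ratio over black of 1.35 (0.88 after the subtraction) and over brown of 1.58. The same held for PER1, a clock gene with a glucocorticoid response element in mammals, named after its values were seen (20.3 FPKM in white, 7.24 in brown, 8.96 in black).

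The phosphatase DUSP1 had another pattern, with 27.1 FPKM in white goats, 32.0 in brown goats and 12.6 in black goats. HSD11B1, which regenerates active glucocorticoid from its inert form, had 24.3 FPKM in white goats, 12.7 in brown goats and 10.2 in black goats, a log2 ratio of white over black of 1.26 (0.97 after the subtraction), and was also named after its values were seen. FKBP5, another target of the receptor, named after its values were seen, was not past the fold (26.0 FPKM in white, 21.4 in brown, 18.9 in black). FKBP4, a cochaperone of steroid receptors and the most abundant gene of the list, had 99.2 FPKM in white goats, 143 in brown goats and 131 in black goats. The receptor per unit of HSD11B1 was 0.58 in white goats, 1.14 in brown goats and 0.84 in black goats.

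RORA, which drives the clock gene BMAL1 and opposes the REV-ERB repressors at the same DNA sites, is at 45884565 to 45923265 of chromosome 10. It had 28.4 FPKM in white goats, 21.9 in brown goats and 15.8 in black goats, evenly stepped, with log2 ratios of 0.84 for white over black, 0.38 for white over brown and 0.47 for brown over black. After the subtraction they were 0.55, 0.36 and 0.17. The human RORA gene is far longer than the 38701 bp given here.

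The melatonin receptors MTNR1A and MTNR1B are listed at 0 in every colour, and are named here for their role. Of 5 genes of the melatonin and ROR list above the filter, 2 were past the fold between white and black and 1 between white and brown, all higher in white. NR1D2, which encodes REV-ERB beta, had 11.7 FPKM in white goats, 10.2 in brown goats and 5.32 in black goats. Its log2 ratio of 1.14 in white over black was under the threshold after the subtraction (0.96). NR1D1, the gene of REV-ERB alpha, named after its values were seen, lies 2768 bp from THRA in these data. The THRA and NR1D1 genes overlap on opposite strands in human, and the library kit is not described as strand specific. The ratio of THRA to NR1D1 was 2.07 in white goats, 2.02 in brown goats and 2.23 in black goats, so the neighbours had nearly the same pattern.

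**Figure D4:**
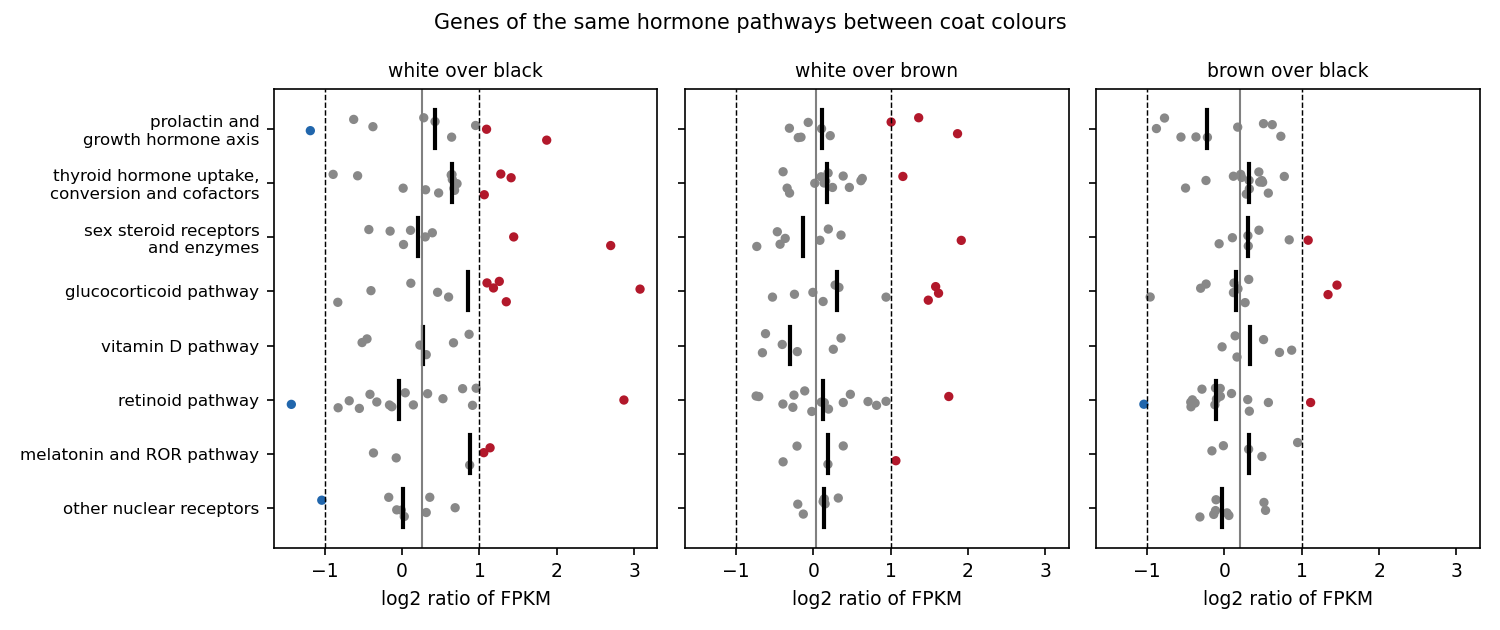
Log2 ratio of FPKM (x axis) of the genes of 8 hormone pathway lists in the 3 comparisons; each point is a gene above the filter, red past the fold as higher, blue as lower, black bars are list medians, the grey line is the median of all loci compared and the dashed lines the fold threshold. Glucocorticoid genes have 5 red points in white over black, and CRABP1 is the blue point of the retinoid list.

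In all, 102 of 121 genes on the 8 pathway lists had a locus under their symbol. Of the 76 above the filter between white and black, 15 were past the fold as higher and 3 as lower in white, 23.7% against 13.0% of all loci. Between white and brown 10 of 75 were past it, all higher in white (13.3% against 7.27%), and between brown and black 4 were higher and 1 lower of 75 (6.67% against 4.77%). With the subtraction for span 7 genes were past the fold as higher and 4 as lower between white and black (14.5% against 8.38% of all loci). Between white and brown 9 were past the fold, all higher in white (12% against 7.12%). In brown over black 1 was higher and 1 lower, and the 2.67% lay under the 3.28% of all loci. The lists were written with earlier results of these data known. The medians of the lists for white over black ran from -0.05 for the retinoid genes to 0.87 for the melatonin and ROR genes, with 0.85 for the glucocorticoid, 0.65 for the thyroid, 0.43 for the prolactin, 0.27 for the vitamin D and 0.20 for the sex steroid genes. After the subtraction the melatonin and ROR genes had 0.84, the glucocorticoid genes 0.47 and the thyroid genes 0.15, while the prolactin, vitamin D, sex steroid and retinoid medians lay between -0.01 and -0.25.

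**Figure D5:**
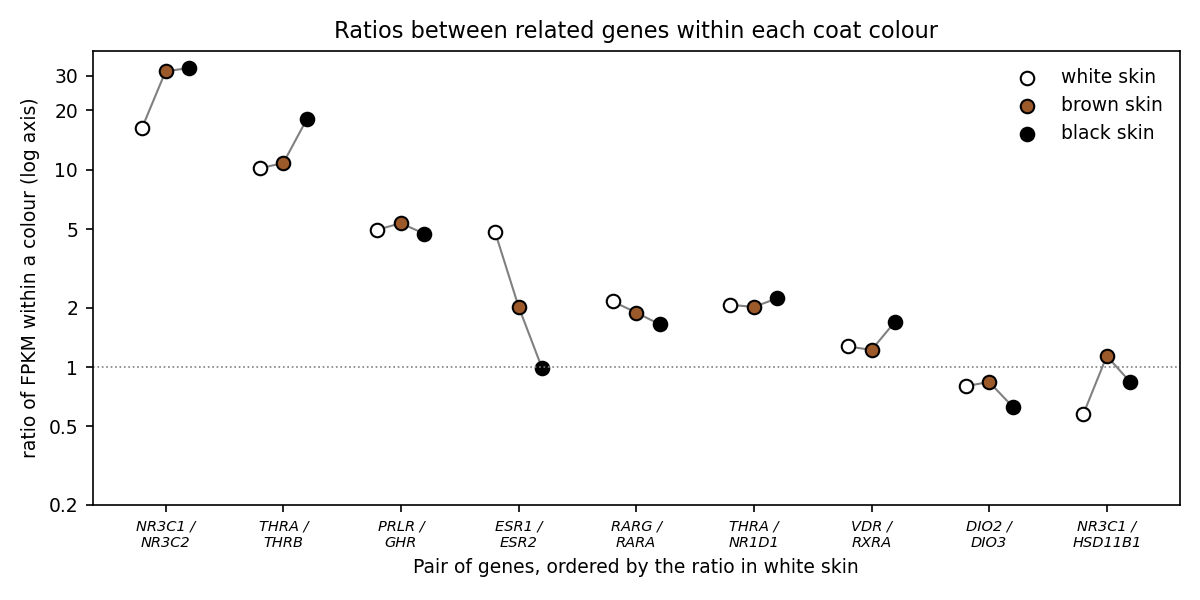
Ratio of FPKM between pairs of related genes within each colour (log axis, white, brown and black circles), which does not depend on how the colours were scaled to each other. PRLR over GHR stays between 4.74 and 5.36, while NR3C1 over NR3C2 is 16.3 in white goats, 31.6 in brown goats and 32.8 in black goats and THRA over THRB 10.2, 10.8 and 18.1. The shift of ratios with locus span is not removed here, and THRA and THRB differ widely in span. NR3C2 and ESR2 were under 1 FPKM in every colour.

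Other genes with the same pattern over the 3 colours were sought among 10917 named loci with at least 1 FPKM in every colour, by the larger of the differences in the log2 ratios of white and brown to black. With 1 value for each of 3 colours such likeness is weak: 73 loci came within 0.1 of PRLR on both ratios, 209 of THRA, 246 of VDR, 167 of NR3C1, 195 of RORA, 332 of RARG and 130 of DIO2. THRB had 7 such loci and ESR1 had 1. The nearest were DLG1, ZNF652 and MIB1 for PRLR, LPP, ANOS1 and LRMP for THRB, and GDPD2, MIR671 and SEMA5A for ESR1, the last at a difference of 0.21. For THRA they were CBFA2T3, WWOX and ALDH5A1, for VDR FES, STARD10 and MAN2C1, and for NR3C1 BIRC6 and RAP2C. MYO5B, LURAP1 and KCTD1 were nearest to RORA, BTG1, FAM63A and PSKH1 to RARG, and PDZD8, ABLIM1 and TULP4 to DIO2.

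Markers of skin cell types moved between the colours too, and their part in the members' ratios was not tested. The summed FPKM of 6 of 9 inner root sheath markers was 8031 in white goats, 4857 in brown goats and 4236 in black goats, and that of 5 of 13 hair shaft and matrix markers 615, 344 and 296. These sums had the order white, brown, black, as had 8 of the members and 35.2% of 14273 loci. The sums for fibroblast, dermal papilla, endothelium and adipocyte markers, given below, had this order too. KRT25, the most abundant inner root sheath marker, was slightly lower in brown (2011 FPKM) than in black (2037 FPKM). The sums for 6 of 6 fibroblast markers were 2460.5 in white goats, 2051 in brown goats and 1561 in black goats, and for 9 of 9 dermal papilla markers 38.5, 36.5 and 28.5. Not every marker followed the sum of its list. Of the dermal papilla, VCAN (8.06, 15.0 and 12.2 FPKM in white, brown and black) and RSPO3 (1.42, 3.05 and 2.18) were lowest in white. BMP4 (20.4, 12.4 and 10.1) was highest in white. Of the fibroblast markers, PDGFRA (18.8, 33.5 and 22.5) and DCN (869, 1038 and 806) were highest in brown. Basal epidermis (5 of 6 markers) had 17402, 22060.2 and 13391 FPKM and suprabasal epidermis (5 of 6) 9627, 9697 and 7231. The basal sum was nearly all from KRT5 and KRT14, while TP63 and COL17A1 were highest in white. For proliferation genes (6 of 6) the sums were 101, 154 and 109 FPKM, for endothelium (5 of 5) 76.1, 70.8 and 59.0, for leukocytes (6 of 7) 52.4, 34.6 and 38.3 and for sebaceous gland (6 of 8) 250, 213 and 223, in the order white, brown, black. Adipocyte markers (5 of 6) summed to 4.63, 4.62 and 3.73 FPKM, with LEP listed at 0 throughout. Skeletal muscle markers (6 of 8) summed to 114, 118 and 143, nearly all from DES, which smooth muscle also makes, with MYLPF listed at 0. Melanocyte genes (7 of 7) summed to 22.3, 64.9 and 58.0 FPKM, of which 4 were past the fold as lower and 1 as higher in white than in black. The pigment enzyme TYRP1 had 0.12 FPKM in white goats, 9.72 in brown goats and 9.79 in black goats. MLANA, a melanosome protein, was nearly equal in white and black (5.86 in white, 14.8 in brown, 5.95 in black), and MITF, the transcription factor of the lineage, was highest in white (8.83 in white, 7.11 in brown, 3.90 in black). For MITF the log2 ratio in white over black was 1.18, and 0.29 after the subtraction.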

How the data were processed

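Poly-A RNA of flank skin was sequenced as paired-end reads (6 goats, 2 per colour). According to the methods, the authors kept reads with quality over 20 and length over 25, aligned them to the NCBI goat genome with TopHat 2.1.0 on a Bowtie 2.2.6 index (the submitters' processing notes name Bowtie2 version 2), allowing 1 mismatch in the seed and reporting all positions of multiply mapped reads, and measured transcripts with Cufflinks 2.2.1. The genome build is not given in the sources used here. The authors deposited 1 CuffDiff comparison table, whose FPKM values combine the goats of a colour; how colours were scaled to each other is not stated. Its fold changes, test statistics, p-values and q-values are the authors' own comparison and were not used. A colour's FPKM was identical in both comparisons it enters.

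Log2 ratios were computed without a pseudocount, in Python 3.11.15 with pandas 2.3.3 and numpy 2.4.6. Loci needed an FPKM of at least 1 in either colour and above 0 in both. For span, the median of each of 20 bins was subtracted. The code of the calling and span steps was checked on simulated data without noise, with shifts well past the threshold. Such a check cannot speak for noise or for ratios near the threshold. Chromosomes were taken from gene names that each sequence shares with the goat annotation ARS1.2, whose positions were not used. Genes beyond the members are named by rule: per list and comparison the 2 past the fold with the largest ratio, the most abundant gene of a list, and the 3 most similar patterns per member; others are marked or serve as a partner of a member. Some genes that meet the rule are not reported here. The members and lists were chosen with earlier results of these data known. GEO's design text speaks of 6 goats in each of grey, white and black, while the sample labels, followed here, give 2 each of white, brown and black, so the number of goats behind a pooled value rests on those labels. Alternatives were other pseudocounts, filters, thresholds and scalings.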

Additional observations from a re-analysis of the deposited data

How the results depend on the processing

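No paired analysis was possible because each deposited value combines the goats of a colour, and for the same reason no goat could be left out. The count of members past the fold in white over black (4) was 1 with 1 added to each FPKM (6.06% of all loci), 2 after subtraction of the median of all loci (9.68%), 1 after subtraction for span (8.38%), 7 at a 1.5-fold threshold (33.1%), 1 at a log2 threshold of 2 (1.70%) and 3 of 8 when both colours needed 1 FPKM (9.22%). In white over brown (1) it was 0 with 1 added (3.53% of all loci), 0 when both colours needed 1 FPKM (4.90%) and 0 at a log2 threshold of 2 (1.02%). In brown over black (1) it was 0 with 1 added (1.49% of all loci), 2 of 9 without the filter (11.0%) and 4 at a 1.5-fold threshold (20.9%). It was 0 after subtraction of the median of all loci (3.85%), of similar span (3.28%) or of 13 reference genes (3.93%). At a log2 threshold of 2 it was also 0 (0.63%). Genes of the pathway lists past the fold numbered 18, 10 and 5 in the 3 comparisons. Without the filter they were 29 of 93, 16 of 94 and 13 of 93 (18.6%, 12.8% and 11.0% of all loci). At a 1.5-fold threshold they were 39, 21 and 15 (33.1%, 20.8% and 20.9%). With 1 FPKM needed in both colours they were 14 of 72, 9 of 74 and 4 of 72 (9.22%, 4.90% and 2.78%). Subtraction for span left 11 in white over black (8.38%) and 2 in brown over black (3.28%).

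The scale affects direction. The median of reference genes was -0.14 for white over black, -0.22 for white over brown and 0.14 for brown over black, so relative to them white stood higher than relative to all loci. With the median of all loci subtracted, the pathway genes past the fold in white over black were 9 higher and 6 lower, and with that of the reference genes 20 and 2, against 15 and 3 as deposited. In brown over black they were 2 higher and 3 lower under either, against 4 and 1. A pseudocount cannot reverse the order of 2 values, and no scaling tried subtracted more than 0.89. Members past the fold could therefore not change sign under these alternatives. ESR1, under 1 FPKM in brown and black, is the member whose ratios depend most on the added count.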

Other observations

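Other nuclear receptors of skin differed less between the colours than the members did. Of 8 above the filter between white and black, none was past the fold as higher and 1 as lower in white, and their median log2 ratio was 0.01, under the 0.26 of all loci. NR1H2, an oxysterol receptor and the most abundant of the list, had 23.7 FPKM in white goats, 21.6 in brown goats and 23.3 in black goats. The gene past the fold, NR5A2, had 0.52 FPKM in white goats, 1.00 in brown goats and 1.08 in black goats. It passed the filter only through black, where it was highest. PPARA, a fatty acid receptor, had 8.42, 7.57 and 5.23 FPKM in white, brown and black skin, and ESRRA, a regulator of mitochondrial genes, 9.94, 9.10 and 10.01, both named after their values were seen.

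Several partners of the hormone axes were under 1 FPKM in every colour and entered no comparison, and those given here were named after their values were seen. The mineralocorticoid receptor NR3C2 had 0.86 FPKM in white goats, 0.46 in brown goats and 0.26 in black goats, and the retinoic acid receptor RARB 0.97, 0.70 and 0.38. The second oestrogen receptor, ESR2, was flat at 0.26 FPKM in white goats, 0.26 in brown goats and 0.24 in black goats, so the ratio of ESR1 to ESR2 was 4.85, 2.03 and 0.99. GREB1, an oestrogen-induced gene of human breast cells, had 0.15 FPKM in white goats, 0.09 in brown goats and 0.03 in black goats. At these levels the number of fragments may be very small, and how far the values would vary between goats was not measured here.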
